A study of Mus musculus with 12 samples.

Results

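The comparison set 3 libraries labelled Ep300 Crebbp knockout against 3 libraries labelled Crebbp knockout, and it asks what the Ep300 knockout adds in cells that already carry the Crebbp knockout. All libraries came from B16F10, a pigmented mouse melanoma cell line grown in DMEM with serum, and the value of a gene is its number of mRNA-seq reads. The 2 groups share the Crebbp knockout label and differ by the Ep300 knockout label. They make up 6 of the 12 libraries of the study, whose other groups are labelled WT and Ep300 knockout, with 3 libraries each. Of 54752 genes in the table, 18434 passed a filter on low counts and were tested. The groups are called here the double-labelled and the Crebbp-labelled libraries. Whether a knockout is 1 clone or a pool of cells, and whether the 3 libraries of a group were grown apart, is not stated in the labels, so the p-values measure only the spread between these samples.

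Ep300 encodes p300 and Crebbp encodes CBP, close paralogs that acetylate histones, above all at enhancers and promoters, and that bind a large number of transcription factors. Many of those factors recruit either protein, so 1 paralog can cover for part of the loss of the other. In melanocytes and melanoma cells MITF and SOX10 keep pigment genes active, and both are known to work with p300 and CBP. The interferon response, which STAT and IRF factors drive, also draws on these coactivators.

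Counts for the compared libraries ranged from 66475462 to 84500360 reads in genes, and from 64257251 to 85604243 over all 12. The first principal component of log CPM (counts scaled to library size, with TMM factors) held 51.1% of the variance and ordered the groups without overlap. It ran from -53.2 to -42.6 in the WT and from -36.7 to -28.2 in the Crebbp-labelled libraries. In the Ep300-labelled libraries it ran from 9.17 to 16.8, and in the double-labelled ones from 64.4 to 67.7. Mitochondrial genes took 3.02% to 3.62% of the reads in the double-labelled libraries and 3.81% to 6.39% in the Crebbp-labelled ones, and 16 of 19 mitochondrial genes were called lower, against 21.8% of all tested genes. The third Crebbp-labelled library had the highest mitochondrial share and the lowest scaling factor of the 6, and 6669 genes changed when it was left out. All 7 defining melanocyte markers were present in every library and were summed at 18346 to 19160 CPM in the Crebbp-labelled libraries and at 6524 to 6692 CPM in the double-labelled ones. The summed levels of immune, endothelial and epithelial markers were at most 7.24 CPM, with Ptprc, Adgre1, Itgam, Epcam, Krt14 and Krt18 at 0 in all 6 libraries. The fibroblast list summed to 7.62 to 10.7 CPM and to 13.3 to 14.6 CPM, with Lum at 0. In RNA from a whole culture, fewer cells of a kind and less RNA per cell cannot be told apart.

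Neither targeted transcript was lower in the double-labelled than in the Crebbp-labelled libraries. Ep300 stood at 111, 111 and 89.9 CPM in the Crebbp-labelled libraries and at 146, 160 and 138 CPM in the double-labelled ones. Every double-labelled library was thus higher, and the log2 fold change was 0.51 ± 0.10 (SE, adjusted p = 0.000777, edgeR quasi-likelihood test with Benjamini-Hochberg adjustment, used throughout). Crebbp stood at 36.8, 36.3 and 30.3 CPM in the Crebbp-labelled libraries and at 66.2, 68.7 and 57.1 CPM in the double-labelled ones. The groups did not overlap here either, with a log2 fold change of 0.89 ± 0.12 (adjusted p = 1.85e-05), and the double-labelled mean of 64.0 CPM was close to the 64.7 CPM of the WT libraries. The WT libraries stood at 69.5, 56.7 and 67.9 CPM, so the Crebbp transcript was lower in the Crebbp-labelled libraries than in WT, without overlap, while the ranges of the WT and double-labelled libraries overlapped. A count over a whole gene shows neither a short edit nor the protein, so the label of the double knockout rests on the labels alone, and each direction given for it is that of the libraries so labelled.

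The promoters of 3 interferon-stimulated genes and 3 pigment genes are shown first, because these are the families that moved farthest in each direction. Each window shown holds the string marked in it, which not all members of these families do. Each window runs from 250 bases before to 50 after the RefSeq start of the gene on GRCm38.p6, 5′ to 3′ on the strand of the gene. Capitals mark matches on either strand to GAAA, any 2 bases and GAAA again, the core of the interferon-stimulated response element (ISRE) that STAT2 and IRF9 bind together, and positions count from the start.
Isg15, chr4:156200769-156201068, minus strand, matches begin at -78, -72 and -66: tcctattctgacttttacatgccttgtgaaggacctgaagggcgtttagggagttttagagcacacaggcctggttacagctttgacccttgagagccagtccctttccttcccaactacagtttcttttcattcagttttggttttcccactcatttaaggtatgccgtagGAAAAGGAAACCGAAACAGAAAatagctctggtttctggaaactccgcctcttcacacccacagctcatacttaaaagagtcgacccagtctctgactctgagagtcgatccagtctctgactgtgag
Ifit3, chr19:34583279-34583578, plus strand, matches begin at -156 and -122: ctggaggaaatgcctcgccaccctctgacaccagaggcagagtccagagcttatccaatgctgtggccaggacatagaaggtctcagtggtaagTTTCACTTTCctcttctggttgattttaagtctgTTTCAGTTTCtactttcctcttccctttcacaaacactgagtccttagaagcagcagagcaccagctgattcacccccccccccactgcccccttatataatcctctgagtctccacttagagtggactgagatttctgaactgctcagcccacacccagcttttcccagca
Oas3, chr5:120777610-120777909, minus strand, match begins at -75: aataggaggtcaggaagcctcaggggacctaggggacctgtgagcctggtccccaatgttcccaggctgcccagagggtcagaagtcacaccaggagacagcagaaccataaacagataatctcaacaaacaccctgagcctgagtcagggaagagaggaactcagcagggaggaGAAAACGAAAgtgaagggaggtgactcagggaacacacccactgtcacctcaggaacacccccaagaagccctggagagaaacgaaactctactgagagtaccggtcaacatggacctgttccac

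In the next windows capitals mark TCATGTG, on either strand, the core of the M-box that MITF binds in pigment gene promoters.
Tyr, chr7:87493463-87493762, minus strand, match begins at -22: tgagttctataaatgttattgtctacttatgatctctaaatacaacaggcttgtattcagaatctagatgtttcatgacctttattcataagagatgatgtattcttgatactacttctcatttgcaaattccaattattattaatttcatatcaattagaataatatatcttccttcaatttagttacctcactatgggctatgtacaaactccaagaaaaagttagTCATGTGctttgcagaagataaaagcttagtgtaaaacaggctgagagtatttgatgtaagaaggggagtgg
Dct, chr14:118052197-118052496, minus strand, matches begin at -232 and -151: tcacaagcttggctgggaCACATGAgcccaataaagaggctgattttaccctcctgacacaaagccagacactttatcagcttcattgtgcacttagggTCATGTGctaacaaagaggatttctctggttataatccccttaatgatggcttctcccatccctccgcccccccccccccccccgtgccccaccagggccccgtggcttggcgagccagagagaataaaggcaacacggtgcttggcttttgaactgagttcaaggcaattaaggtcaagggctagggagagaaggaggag
Mc1r, chr8:123406832-123407131, plus strand, match begins at -52: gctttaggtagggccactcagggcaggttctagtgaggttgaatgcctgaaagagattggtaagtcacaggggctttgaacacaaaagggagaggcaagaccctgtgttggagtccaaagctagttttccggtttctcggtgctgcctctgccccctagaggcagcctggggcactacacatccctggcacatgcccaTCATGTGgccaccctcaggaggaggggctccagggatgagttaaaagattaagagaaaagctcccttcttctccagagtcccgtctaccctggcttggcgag

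A RefSeq window was found for 11048 of the 18434 tested genes. Some genes have more than 1 window, and a gene is counted here if any of its windows holds the string. The ISRE-like string occurred in 3.44% of all 32851 windows, which belong to 27025 genes, in 3.99% of these genes and in 3.66% of the tested ones. It occurred in 13.5% of the genes called higher by at least 2-fold (100 of 742) and in 2.54% of those called lower by at least 2-fold (12 of 473). Among the interferon-stimulated effectors 27 of 46 genes held it, and among the genes of MHC class I presentation 5 of 19. TCATGTG occurred in 3.77% of all windows, in 4.31% of all genes with a window and in 2.89% of the tested ones. It was present in 6.55% of the genes called lower by at least 2-fold (31 of 473), in 2.7% of those called higher by at least 2-fold, and in 8 of 26 genes of the melanin and melanosome list. A further string that was searched, TGACGTCA, the site of the factor CREB, occurred in 3.46% of the tested genes. It was present in 3.5% of the genes called higher by at least 2-fold and in 1.48% of those called lower by at least 2-fold. Among CREB targets and immediate-early genes 2 of 27 held it. The windows of Oasl1, Oasl2, Ifi44 and Irf7 hold no ISRE-like match, and those of Mitf, Kit, Rab27a and Rab32 hold no TCATGTG. A match is a string of letters, not a measured binding site.

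Across all tested genes the double-labelled libraries differed widely from the Crebbp-labelled ones. At an adjusted p under 0.05, 7966 of 18434 genes changed (43.2%), of which 3942 were higher (21.4%) and 4024 lower (21.8%). A change of at least 2-fold was called for 1881 genes (10.2%), 1062 higher (5.76%) and 819 lower (4.44%). Libraries of the 2 groups did not overlap for 10407 genes (56.5%), and the median log2 fold change of all tested genes was -0.007. Any list of genes has to be read against these shares. Protein-coding genes were called higher in 3555 and lower in 2996 of 12882 cases, while processed pseudogenes were called higher in 46 and lower in 541 of 1822. Scaling by library totals instead of TMM moves the median of all genes to 0.19 and gives 6104 genes higher and 2266 lower, so that 72.9% of the calls are higher instead of 49.5%. Changes are therefore relative to the middle of all genes, and the lists with small medians are the ones that this choice can turn.

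**Figure D1:**
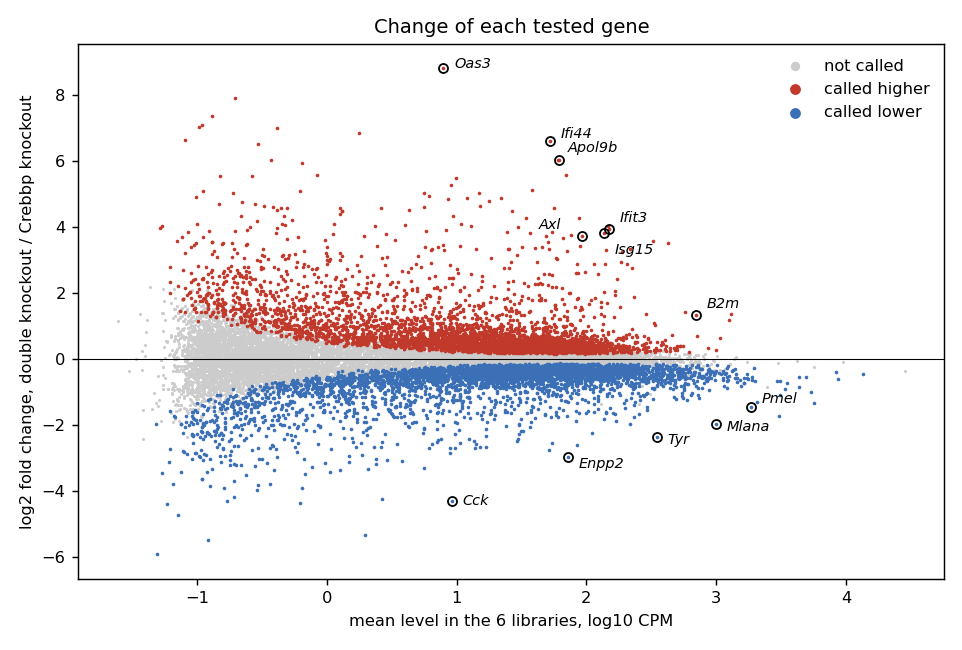
Change of each of the 18434 tested genes. The horizontal axis is the mean level over the 6 compared libraries (log10 CPM) and the vertical axis the log2 fold change of the double-labelled over the Crebbp-labelled libraries, with 3942 genes called higher in red, 4024 called lower in blue and the others in grey. Interferon-stimulated genes such as Oas3, Ifi44 and Apol9b lie at the top, and Cck, Enpp2, Tyr, Mlana and Pmel lie in the lower part.

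Genes of the interferon response had the 2 highest medians of the 28 gene lists, those of the interferon-stimulated effectors and of interferon production and sensing. Ifnb1, which encodes interferon beta, had 1, 2 and 1 reads in the Crebbp-labelled libraries and 56, 41 and 50 reads in the double-labelled ones. All 3 double-labelled libraries lay above the others, and the ratio was 28.1 with a 95% counting interval of 10.8 to 105. Of the 13 tested genes of interferon production and RNA sensing, 12 rose and none fell, with a median log2 fold change of 2.01. Ikbke, a kinase of this pathway, was at -0.11 and was not called. The adaptor gene Mavs, the kinase gene Tbk1 and Tmem173, which encodes STING, rose by 0.42, 0.37 and 0.35.

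Among the RNA sensors, Ifih1, which encodes MDA5, stood at 28.4, 28.3 and 24.9 CPM in the Crebbp-labelled libraries and at 196, 208 and 196 CPM in the double-labelled ones. Dhx58, which encodes LGP2, stood at 3.62, 4.05 and 2.86 CPM and at 56.1, 57.6 and 54.7 CPM in the same order. Zbp1, a sensor of Z-form nucleic acid, stood at 0.231, 0.299 and 0.485 CPM and at 11.0, 11.1 and 10.4 CPM. Each of the 3 was higher in every double-labelled library, with log2 fold changes of 2.88 ± 0.09, 4.00 ± 0.11 and 5.01 ± 0.23. Ddx58, the gene of RIG-I, rose by 2.93, Tlr3, an endosomal sensor of double-stranded RNA, by 2.17, and Eif2ak2, the kinase PKR, by 2.01.

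Receptor and JAK genes moved little, while the transcription factors that carry the signal rose. Of 20 tested genes of the interferon receptor and JAK-STAT list, 15 rose and 2 fell, with a median of 0.96. The receptor chain genes Ifnar1 (-0.18) and Ifngr2 (-0.67) were the 2 that fell, Ifnar2 (-0.02) and Ifngr1 (0.15) were not called, and Jak1 (0.29), Jak2 (0.21) and Tyk2 (0.30) rose slightly. Stat2 stood at 13.2, 14.3 and 12.0 CPM in the Crebbp-labelled libraries and at 104, 110 and 103 CPM in the double-labelled ones. Irf7, the factor that amplifies interferon alpha production, stood at 1.62, 1.45 and 1.32 CPM and at 40.0, 42.8 and 44.2 CPM. Both factor genes were higher in each double-labelled library, with log2 fold changes of 3.00 ± 0.08 (adjusted p = 3.65e-13) for Stat2 and 4.85 ± 0.14 (adjusted p = 7.24e-13) for Irf7. Irf9, the DNA-binding partner of STAT2, rose by 1.92 and Irf1 by 1.43. The negative regulators rose as well: Usp18, which removes ISG15 from proteins and blocks the receptor, went from 9.22, 8.30 and 8.43 CPM to 166, 169 and 167 CPM, a log2 fold change of 4.27 ± 0.09, and Socs1 and Socs3 rose by 1.69 and 1.21.

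All 59 tested interferon-stimulated effectors were called, 58 of them higher and 57 of these by at least 2-fold. The median of this list was 3.33, and the libraries did not overlap for any of the 59. Ifitm2, which restricts virus entry, was the exception and fell by 0.20, and it was not called when libraries were scaled by their totals. Isg15, a ubiquitin-like modifier on chromosome 4, stood at 18.0, 17.8 and 18.5 CPM in the Crebbp-labelled libraries and at 256, 249 and 258 CPM in the double-labelled ones. Ifit3, which binds foreign RNA with its partners, stood at 19.0, 18.7 and 17.7 CPM and at 279, 293 and 267 CPM. Oas3, an enzyme that makes the activator of RNase L, had 3, 3 and 1 reads and 1518, 1352 and 1386 reads. The double-labelled libraries were close to each other and far above the others for each of these genes. The log2 fold changes were 3.81 ± 0.07 for Isg15 (adjusted p = 8.65e-15) and 3.92 ± 0.07 for Ifit3 (adjusted p = 1.44e-14), and the ratio for Oas3 was 465 (95% counting interval 226 to 1158).

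Ifi44 stood at 1.02, 1.15 and 1.06 CPM in the Crebbp-labelled libraries and at 99.3, 108 and 101 CPM in the double-labelled ones. Oasl2 stood at 3.28, 2.79 and 2.39 CPM and at 133, 146 and 126 CPM. Again no double-labelled library came near the Crebbp-labelled ones, and the log2 fold changes were 6.58 ± 0.17 and 5.58 ± 0.16. Oas2 (5.26), the immunity-related GTPase genes Iigp1 (5.46) and Tgtp1 (4.86), and Ifi204 (5.03) and Ifi205 (4.94) of the HIN-200 family were also among the 12 largest rises at 5 CPM or more. So were Apol9a and Apol9b, at 6.02 and 6.03, and Trim30d at 5.12. Reads of near-identical copies such as Apol9a and Apol9b, Ifit3 and Ifit3b, Tgtp1 and Tgtp2, and the Oas1, Trim30, HIN-200 and H2-Q families may be split between them in the counting, so their single values are uncertain.

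**Figure D2:**
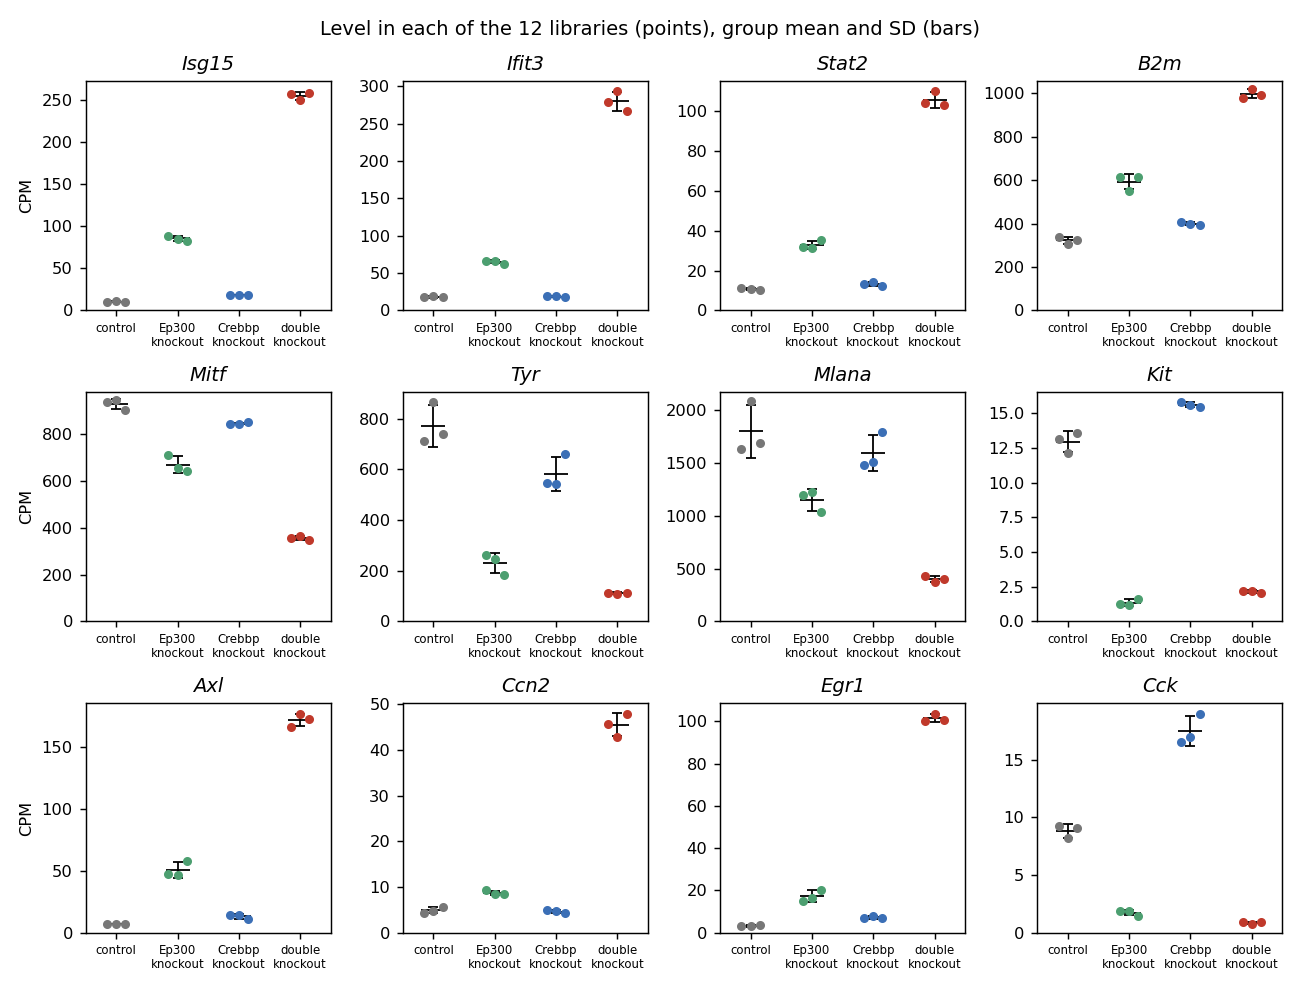
Levels of 12 genes in all 12 libraries, in CPM. Each point is 1 library, the bars give the mean and SD of the 3 libraries of a group, and the groups are control (WT), Ep300 knockout, Crebbp knockout and double knockout, as labelled. Isg15, Ifit3, Stat2, B2m, Axl, Ccn2 and Egr1 are highest in the double-labelled libraries, where Mitf, Tyr, Mlana and Cck are at their lowest.

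Antigen presentation by MHC class I, which shows peptides of the cell to CD8+ T cells, rose in nearly all its parts. Of 22 tested genes 18 rose, all by at least 2-fold, and 3 fell, with a median of 1.72. B2m, the light chain of the complex, stood at 408, 400 and 391 CPM in the Crebbp-labelled libraries and at 980, 1021 and 992 CPM in the double-labelled ones. H2-K1, a heavy chain, stood at 11.6, 12.2 and 10.5 CPM and at 45.3, 43.5 and 43.8 CPM. Nlrc5, the transactivator of these genes, stood at 1.53, 1.66 and 1.24 CPM and at 15.4, 15.7 and 12.5 CPM. None of the 3 overlapped between groups, and the log2 fold changes were 1.32 ± 0.07, 1.95 ± 0.08 and 3.29 ± 0.14. The peptide transporter genes Tap1 (2.55) and Tap2 (3.11), the immunoproteasome subunit genes Psmb8 (4.07) and Psmb9 (2.85), and Tapbp (2.24), which encodes tapasin, rose too. The 3 genes that fell were general chaperones of the endoplasmic reticulum, Calr (-0.84), Pdia3 (-0.66) and Canx (-0.39). H2-Q7 was at 0.89 and was not called.

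Other surface and secreted molecules read by immune cells did not move as a block. Of 18 tested immune ligand genes 7 rose and 4 fell, a share of 61.1% called with a median of 0.19. This median rests on single libraries: it was 0.34 and 0.30 without the second double-labelled and the first Crebbp-labelled library and 0.11 and 0.07 without the first and the third double-labelled one, and 2 genes were lower without the third Crebbp-labelled library. Cd274, which encodes PD-L1, stood at 4.42, 4.09 and 4.38 CPM in the Crebbp-labelled libraries and at 9.93, 11.0 and 10.8 CPM in the double-labelled ones. Sirpa, the receptor for CD47, stood at 150, 151 and 139 CPM and at 57.4, 60.9 and 58.1 CPM. The first was higher and the second lower in every double-labelled library, by 1.30 ± 0.09 (adjusted p = 1.34e-08) and -1.32 ± 0.08 (adjusted p = 2.27e-09). Lgals9 (1.84), Tnfrsf14 (3.12), Pvr (0.91) and Cd47 (0.76) were also higher, and Cd24a (-1.93) was lower.

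Of 19 tested NF-kappaB targets and cytokine genes 12 rose and 1, Nfkbie (-0.60), fell, with a median of 0.50. The largest changes belonged to cytokines of the IL-6 family. Il11 stood at 2.42, 1.99 and 2.54 CPM in the Crebbp-labelled libraries and at 52.0, 48.6 and 52.4 CPM in the double-labelled ones. Lif stood at 0.339, 0.373 and 0.363 CPM and at 8.49, 7.89 and 8.10 CPM. Il6 had 1, 9 and 13 reads and 230, 183 and 266 reads. Each was higher in all 3 double-labelled libraries, with log2 fold changes of 4.46 ± 0.11 for Il11 and 4.50 ± 0.21 for Lif, and a ratio of 22.6 for Il6 (95% counting interval 14.9 to 35.9). The T cell attractant Cxcl10 rose from 23.5, 23.7 and 24.6 CPM to 101, 109 and 108 CPM, a change of 2.15 ± 0.06, and Csf1, which supports macrophages, by 2.09. Nfkb1 (0.07), Birc3 (-0.06) and Cxcl1 (-0.48) were not called.

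Pigment cell genes were lower, from the lineage factors to the enzymes of melanin synthesis. Of 12 tested lineage regulators 10 fell and 1 rose, with a median of -0.60. Mitf stood at 840, 842 and 848 CPM in the Crebbp-labelled libraries and at 354, 365 and 347 CPM in the double-labelled ones. Sox10 stood at 164, 170 and 143 CPM and at 110, 113 and 96.3 CPM. Kit, the receptor for stem cell factor, stood at 15.8, 15.6 and 15.4 CPM and at 2.22, 2.21 and 2.05 CPM. The groups were separate for all 3, with the double-labelled libraries lower, by -1.25 ± 0.07 for Mitf (adjusted p = 2.05e-09), -0.58 ± 0.10 for Sox10 (adjusted p = 0.000284) and -2.85 ± 0.10 for Kit (adjusted p = 1.26e-11). Mc1r, the melanocortin receptor whose promoter holds TCATGTG at -52, fell from 73.9, 74.0 and 70.3 CPM to 21.7, 22.7 and 23.6 CPM, and Met, Erbb3, Pax3 and Tfap2a fell by 1.16, 1.18, 0.48 and 0.62. Tfe3, a relative of MITF, was the exception and rose (0.26), and Lef1 (-0.06) was not called.

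Of 33 tested genes of melanin synthesis and melanosomes 27 fell, 18 of them by at least 2-fold, and 1 rose, with a median of -1.34. Tyr, the rate-limiting enzyme, stood at 546, 542 and 661 CPM in the Crebbp-labelled libraries and at 114, 108 and 114 CPM in the double-labelled ones. Dct, dopachrome tautomerase, stood at 4434, 4597 and 4995 CPM and at 1349, 1403 and 1470 CPM. Pmel, the fibril protein of melanosomes, stood at 2684, 2776 and 2723 CPM and at 998, 996 and 961 CPM. Every double-labelled library was below every Crebbp-labelled one, with log2 fold changes of -2.38 ± 0.13, -1.73 ± 0.11 and -1.47 ± 0.08. Mlana, a melanosome antigen known as MART-1, fell from 1479, 1509 and 1792 CPM to 433, 376 and 405 CPM, a change of -1.98 ± 0.12. Bace2, which cleaves PMEL, fell by 2.26, Gpr143 of ocular albinism by 2.03, the transporter genes Slc24a5 and Slc45a2 by 1.66 and 1.46, and the melanosome trafficking genes Rab17, Rab38, Rab32 and Rab27a by 2.40, 1.55, 1.55 and 1.51. The other members were Hps1 (0.20), Hps6 (0.14), Hps4 (-0.22), Atp7a (-0.14) and Ap3b1 (0.00 after rounding), which were not called, and Ap3d1, which was higher (0.30). Their relatives Hps3 and Hps5 were among the falls.

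Genes of Schwann cells, glia and neurons, which share the neural crest origin of melanocytes, were mostly lower as well, with 15 of 24 lower, 4 higher and a median of -0.73. Cck, the neuropeptide cholecystokinin on chromosome 9, stood at 16.6, 17.0 and 19.0 CPM in the Crebbp-labelled libraries and at 0.881, 0.779 and 0.941 CPM in the double-labelled ones. It was lower in each double-labelled library, and its change, -4.33 ± 0.12, was the largest fall among named genes at 5 CPM or more. Cpne4 (-2.72), Gpr37 (-2.70), S100b (-1.65) and L1cam (-1.64) fell, and Cadm4 (1.42) and Nr2f1 (0.76) rose.

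The remaining falls of that size were spread over other functions. Enpp2, which makes lysophosphatidic acid, fell from 129, 131 and 125 CPM to 16.4, 16.9 and 15.1 CPM, a log2 fold change of -2.99 ± 0.07. Ccdc13 (-3.33), Ankfn1 (-2.78), the fatty acid binding protein gene Fabp7 (-2.70), the monoacylglycerol lipase gene Mgll (-2.69), the gasdermin gene Gsdmc (-2.62) and Kank4 (-2.59) were among the 12 largest, as was Cyp26b1 (-2.70), which degrades retinoic acid. Each was lower in all 3 double-labelled libraries.

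The list of the dedifferentiated and invasive melanoma state changed in both directions. Of 26 tested members 13 were higher and 8 lower (5 under library totals), with a median of 0.63. The list holds 36 genes, and Egfr, Lox, Serpine2, Snai1, Sox2, Tgfbi, Tnc, Twist1, Wnt5a and Zeb1 did not pass the low-count filter. Axl, a receptor tyrosine kinase that marks this state, stood at 14.1, 14.0 and 10.9 CPM in the Crebbp-labelled libraries and at 166, 176 and 172 CPM in the double-labelled ones. The groups were separate, with the double-labelled libraries higher by 3.72 ± 0.11. Ngfr (2.15), Itga3 (2.45) and Nes (2.19) rose too. Sox9 (-1.64), the integrin gene Itgb3 (-1.47), Cd44 (-0.90) and Pdgfrb (-0.87) fell.

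Of 21 tested targets and partners of the YAP and TEAD factors 12 rose and 2 fell, with a median of 0.80. The members lower were 4 with exon length and GC content fitted, none under library totals, and 1 when any single library of the 6 but the third Crebbp-labelled one was left out. Ccn1 stood at 41.4, 39.1 and 37.9 CPM in the Crebbp-labelled libraries and at 385, 399 and 403 CPM in the double-labelled ones. Ccn2 stood at 4.86, 4.63 and 4.22 CPM and at 45.7, 43.0 and 48.0 CPM. These 2 matricellular proteins were higher in all double-labelled libraries, by 3.33 ± 0.08 and 3.31 ± 0.10. Lats2, a kinase that restrains YAP, rose by 1.84, and Ankrd1 by 3.61. The transcripts of the factors themselves moved less: Yap1 (0.03) and Wwtr1 (0.00) were not called, and Tead1 and Tead3 rose by 0.80 and 1.17.

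Of 33 tested genes of extracellular matrix and TGF-beta 17 rose and 10 fell (5 under library totals), with a median of 0.50. Timp1, an inhibitor of metalloproteases, rose by 2.94, Thbs1 by 3.15, the latent TGF-beta binding protein gene Ltbp1 by 3.33 and Tgfb1 itself by 2.16. Collagen genes went apart: Col8a1 rose from 13.5, 12.8 and 12.8 CPM to 69.0, 72.1 and 72.8 CPM, and Col1a1, Col5a1 and Col12a1 rose by 0.94, 1.78 and 1.79, while Col1a2 fell by 3.36 and Col4a1 (-0.13) and Col4a2 (-0.08) were not called. The fibroblast markers tested moved in both directions, with Col1a1, Pdgfra and Fap higher and Postn lower (-1.84), and their part in these changes was not tested. Fap had few reads, 0, 4 and 5 in the Crebbp-labelled libraries and 34, 23 and 29 in the double-labelled ones. Col3a1, Dcn, Lum and Thy1 did not pass the low-count filter.

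Immediate-early genes and targets of CREB, the factor after which CBP is named, were mostly higher, with 25 of 34 higher, 5 lower (2 under library totals) and a median of 0.63. Egr1 stood at 7.07, 7.78 and 6.71 CPM in the Crebbp-labelled libraries and at 100, 104 and 101 CPM in the double-labelled ones. Every double-labelled library was higher, by 3.82 ± 0.12 (adjusted p = 1.14e-12). Egr2 (3.72), Egr3 (3.17), Fosb (2.98), Fosl2 (2.55), Fos (2.43), Bdnf (2.34) and Junb (1.86) rose with it. Creb1 itself was slightly lower (-0.29), its relatives Atf1 (0.07) and Crem (0.15) were not called, and the coactivator genes Crtc1, Crtc2 and Crtc3 rose by 0.65, 0.37 and 0.39. Of 20 genes of ERK output and feedback 13 rose and 4 fell, with a median of 0.77, among them the feedback inhibitors Spry2 (1.43), Spry4 (1.50) and Dusp5 (3.07) and the factors Etv4 (2.13) and Etv5 (1.40). Dusp4 (-0.92) and Myc (-0.88) fell. Egr1, Il11, Ier3 and Fosl1 stand in more than 1 list, so the lists are not independent of each other.

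Genes of the integrated stress response, which ATF4 drives, changed in both directions around a median of 0.01. Of 39 tested 13 rose and 10 fell, and under library totals 2 were lower and the median was 0.20. Atf3, an inducible repressor, stood at 17.3, 15.2 and 15.3 CPM in the Crebbp-labelled libraries and at 77.5, 74.9 and 74.8 CPM in the double-labelled ones, without overlap, a change of 2.25 ± 0.07. Other rises were in transcription factor genes, Ddit3 (0.77), Atf5 (0.70) and Cebpb (1.17), and in Aldh1l2 (0.75) and Slc7a3 (1.13). The falls held Atf4 (-0.28) and enzymes of serine synthesis, Phgdh (-0.63) and Psat1 (-0.51). The p53 targets likewise split, with 8 of 28 higher and 9 lower: Cdkn1a, the inhibitor p21, rose by 0.26 ± 0.07 (adjusted p = 0.00562) from 110, 110 and 97.4 CPM to 126, 128 and 125 CPM, Btg2 rose by 1.68 and Plk2 by 1.16, and Zmat3 fell by 0.95. The shares called in the stress response and p53 lists were 59% and 60.7%, against 50.9% of protein-coding genes.

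**Figure D3:**
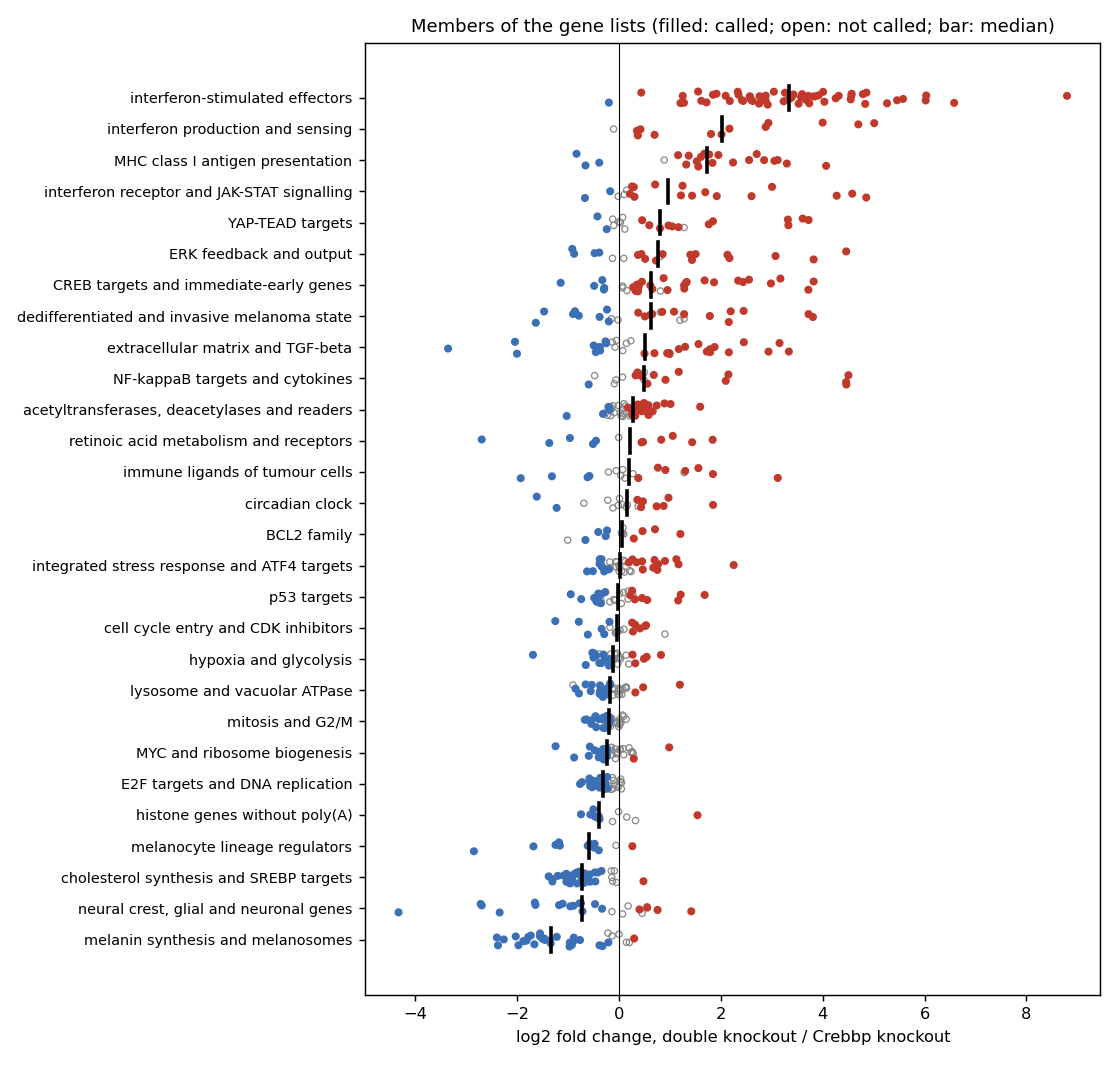
Log2 fold change of every tested member of the 28 gene lists, double-labelled over Crebbp-labelled libraries, with lists ordered by their medians. Filled points passed the test, open points did not, and the black bar is the median, which runs from -1.34 for melanin synthesis and melanosomes to 3.33 for interferon-stimulated effectors.

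Cholesterol synthesis and other targets of the SREBP factors were lower almost as a block, with 29 of 35 lower, 1 higher and a median of -0.73. Insig1, the sterol sensor partner of SCAP, stood at 322, 333 and 356 CPM in the Crebbp-labelled libraries and at 139, 133 and 136 CPM in the double-labelled ones. The groups were far apart, with a log2 fold change of -1.31 ± 0.07 (adjusted p = 1.71e-09). The enzyme genes Fdps (-1.38), Nsdhl (-1.20) and Hmgcs1 (-0.94) fell. Srebf2 fell by 0.47, while Srebf1 (-0.13) and Scap (-0.05) were not called. Acss2, which makes acetyl-CoA from acetate, was the exception and rose (0.48). Scaled by library totals, the median was -0.54 and 27 members were lower.

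Cell cycle genes were lower by small amounts, and many of these calls depend on the scaling. Of 40 E2F targets and replication genes 28 fell and none rose, with a median of -0.31. Of 37 mitotic genes 20 fell and none rose, with a median of -0.19. The shares called were 70% and 54.1%, against 50.9% of protein-coding genes. Under library totals 11 and 9 of them were lower, 1 and 2 higher, and the medians were -0.12 and 0.00. Pcna (-0.73), Gins1 (-0.77), Chaf1b (-0.57), Cdk1 (-0.55), Aurkb (-0.56) and Cdc25b (-0.67) were among the falls, and Mki67 (0.01), Foxm1 (0.04) and Mcm6 (0.03) were not called. Of 19 genes of cell cycle entry 6 rose and 6 fell (3 under library totals), a share of 63.2% called. Cdk2 stood at 359, 372 and 364 CPM in the Crebbp-labelled libraries and at 151, 154 and 155 CPM in the double-labelled ones, and Cdk4 fell by 0.61, whereas Ccnd1 and Cdk6 rose by 0.51 and 0.53. Cdk2 lay lower in every double-labelled library, by -1.25 ± 0.06 (adjusted p = 3.27e-10). It lies within the span of the RefSeq model of Pmel on chromosome 10, so the counts of these overlapping genes are uncertain.

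Myc stood at 64.9, 62.0 and 56.2 CPM in the Crebbp-labelled libraries and at 32.8, 33.5 and 33.0 CPM in the double-labelled ones. It was lower in all 3, by -0.88 ± 0.08 (adjusted p = 4.16e-07). Of 37 genes of MYC and ribosome biogenesis 17 fell and 2 rose (4 without the second Crebbp-labelled library), with a median of -0.23, and under library totals 6 fell and 8 rose with a median of -0.03. Polr3g, a subunit of RNA polymerase III, fell by 1.25 and the MAX partner gene Mxd1 rose by 0.98. Of 33 genes of hypoxia and glycolysis 12 fell (7 without the second double-labelled library) and 5 rose, with a median of -0.12 that library totals turn to 0.08. Ndrg1 (-1.69) and Eno1 (-0.65) fell, and Hk1 (0.54) and Adm (0.82) rose. Of 34 lysosome genes 15 fell and 3 rose, with a median of -0.18 that library totals turn to 0.02. Ctsd (-0.85) and Atp6v0c (-0.66) were among these falls. The shares called in the MYC, hypoxia and lysosome lists were 51.4%, 51.5% and 52.9%, near the 50.9% of protein-coding genes.

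Of 49 tested acetyltransferases, deacetylases and readers of acetylated histones, the 2 targeted genes among them, 24 were higher, 4 lower and 21 not called. The share called was 57.1%, against 50.9% of protein-coding genes. The median of 0.26 became 0.16 when exon length and GC content were fitted in each library and 0.45 under library totals, and the members lower became 7 and 1. Leaving out the first Crebbp-labelled or the first double-labelled library left 2 lower. Hdac7, a class IIa deacetylase, stood at 5.01, 5.75 and 4.80 CPM in the Crebbp-labelled libraries and at 15.3, 15.2 and 16.3 CPM in the double-labelled ones. Brd2, a bromodomain reader, stood at 227, 238 and 208 CPM and at 452, 460 and 445 CPM. Both were separate between groups and higher in the double-labelled libraries, by 1.59 ± 0.10 and 1.01 ± 0.08. The acetyltransferase genes Kat2a (0.32), Kat2b (0.44), Kat6a (0.55), Kat6b (0.57) and Kat7 (0.37) rose, Kat5 (0.04), Kat8 (-0.15) and Hat1 (-0.23) were not called, and Hdac9 (-1.03) and Hdac2 (-0.32) fell.

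Of 13 tested members of a list of histone genes, 8 were lower and 1, Hist2h2be (1.54), higher. The list was meant for replication-dependent histones, whose mRNAs mostly end in a stem-loop and not in a poly(A) tail. Whether this holds for each member, Hist2h2be among them, was not tested. Their median of -0.40 became -0.14 when exon length and GC content were fitted in each library, and the call of Hist1h4d was then lost. Short genes were lower in general: the median log2 fold change ran from -0.28 in the fifth of genes with the shortest exons to 0.11 in the fifth with the longest, and from 0.09 to 0.02 with that fit.

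The study also holds a comparison that adds the Ep300 knockout label to cells with an intact Crebbp label, the Ep300-labelled against the WT libraries, and the difference between the 2 comparisons was tested as an interaction. The 2 comparisons have no library in common. In the Ep300-labelled libraries 2969 genes changed against WT (16.1%), 1341 higher (7.27%) and 1628 lower (8.83%). Of these, 2534 changed in the same direction in the double-labelled libraries, which is 85.3% of the smaller set and 31.8% of the larger one. Their median absolute log2 fold change was 0.89 against the Crebbp-labelled and 0.57 against the WT libraries. Over 10386 genes with at least 5 CPM, Pearson's r of the 2 log2 fold changes was 0.84 and Spearman's rho 0.70, a description across genes that share libraries within each comparison. The Ep300 transcript was at 85.1 CPM in the Ep300-labelled and 94.4 CPM in the WT libraries on average, a difference that was not called.

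The interaction was called for 1897 genes (10.3%), with 983 more positive (5.33%) and 914 more negative (4.96%) where the Crebbp label was knockout. Of the 2534 genes that changed alike, 714 moved farther without CBP by label, 23 moved less far, and for 1797 the difference was not called. A further 5389 genes were called only in the double-labelled comparison, and 1018 of them passed the interaction test. For the rest of these genes no difference between the comparisons was called. The count of 1897 depends on single libraries more than the other counts do: it was 2861 without the second control library, 1197 and 1128 without the first and the third, 1143 without the second Ep300-labelled library and 1119 without the second double-labelled one.

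Interferon-stimulated genes had the clearest excess. In this list 50 of 59 interactions were positive and none negative, and the list median was 3.33 in the double-labelled and 2.05 in the Ep300-labelled comparison. Ifi44 rose by 6.58 and by 3.75 in the 2 comparisons, an interaction of 2.83, and Ifit3 by 3.92 and 1.83, an interaction of 2.09. Oasl1, Ifit3b and Nlrc5 had interactions of 2.08, 2.04 and 1.93. Isg15, at 3.81 and 3.08, differed by 0.74. Ifnb1 rose in both, by 4.70 and 3.20 in the fit, and its interaction of 1.50 was not called (adjusted p = 0.39).

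Outside the interferon genes, Ccn2 rose by 3.31 in the double-labelled and 0.84 in the Ep300-labelled comparison, an interaction of 2.48. Lif rose by 4.50 and 1.43. Atf3 rose by 2.25 and 0.44. For these 3 the difference passed the test, as it did for the R-spondin receptor gene Lgr6 (2.08). In the stress response list 15 of 39 interactions were positive and none negative: against WT 17 members were lower and 1 higher in the Ep300-labelled libraries, against 10 lower and 13 higher in the double-labelled comparison.

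Pigment and sterol genes fell farther in the double-labelled comparison. In the melanosome list 22 of 33 interactions were negative and 1, that of the cystine transporter Slc7a11, positive. Mlana fell by 1.98 and 0.64 and Pmel by 1.47 and 0.32 in the 2 comparisons, with interactions of -1.33 and -1.15. Mitf fell by 1.25 and 0.47, an interaction of -0.78. Kit stood apart, with falls of 2.85 and 3.24 and an interaction of 0.39 that was not called (adjusted p = 0.12). In the cholesterol list 21 of 35 interactions were negative and 1 positive. The largest negative interactions among named genes at 5 CPM or more were those of Kank4 (-2.19), Cck (-1.98), Ccdc13 (-1.86) and the thyroglobulin gene Tg (-1.74).

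**Figure D4:**
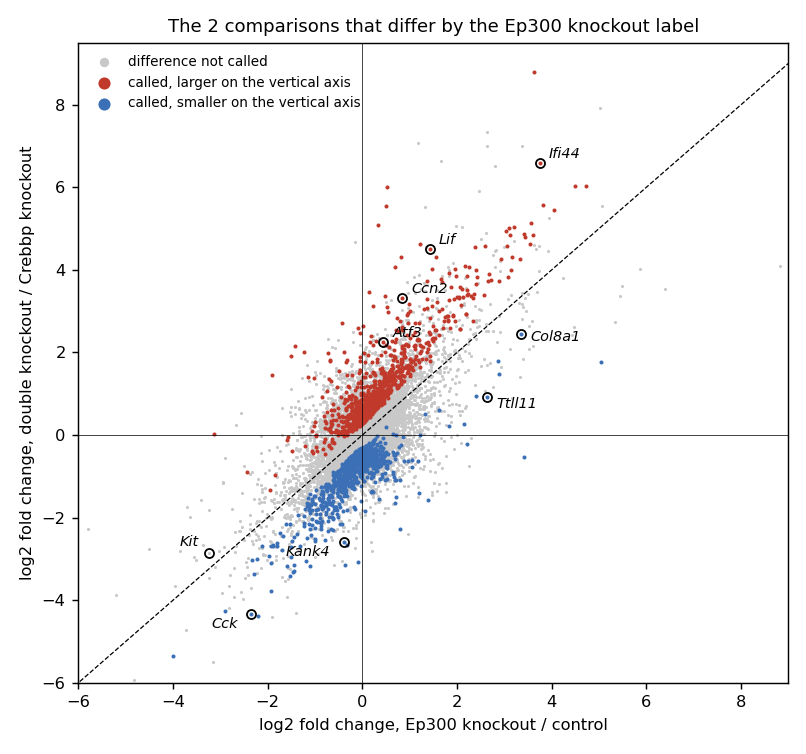
Log2 fold change of each tested gene in the Ep300 knockout against control (horizontal) and in the double against the Crebbp knockout (vertical), all by label. The dashed line marks equal change, and the 983 and 914 genes with a called positive or negative interaction are red and blue. Ifi44, Lif, Ccn2 and Atf3 lie above the line, Kank4 and Cck below it, Col8a1 and Ttll11 are higher in both comparisons but less so on the vertical axis, and Kit lies near the line.

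Some genes changed less where the Crebbp label was knockout. Some matrix genes were among them. Col8a1 rose by 2.45 in the double-labelled and 3.35 in the Ep300-labelled comparison. Col12a1 rose by 1.79 and 2.87 and Col1a1 by 0.94 and 2.40, and all 3 interactions were called. The matrix and TGF-beta list did not go this way as a whole: 8 of 33 interactions were positive and 5 negative, with a median of 0.05. Ttll11, a tubulin glutamylase gene, rose by 0.92 and 2.64. Col8a1, Col12a1, Col1a1 and Ttll11 had higher levels in the Crebbp-labelled than in the WT libraries, for example 13.1 against 5.11 CPM for Col8a1 on average.

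In 43 genes the 2 comparisons were called in opposite directions. The interaction, the difference of the same 2 values, was called for all 43, which this choice of genes made all but certain. In 25 the double-labelled change was upward. Ccl5, a chemokine for T cells, rose from a mean of 6.49 to 12.2 CPM in the double-labelled comparison (0.91) and fell from 5.88 to 3.26 CPM in the Ep300-labelled one (-0.86). Dusp2 (1.07 and -0.75), Osmr, a receptor subunit for oncostatin M (0.91 and -0.44), Trib3 (0.34 and -0.65) and Cdkn1a (0.26 and -0.27) behaved alike. In 18 the double-labelled change was downward, among them the kinase gene Prkcq (-0.86 and 0.31) and 6 replication-dependent histone genes such as Hist1h4b (-0.77 and 0.50).

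**Figure D5:**
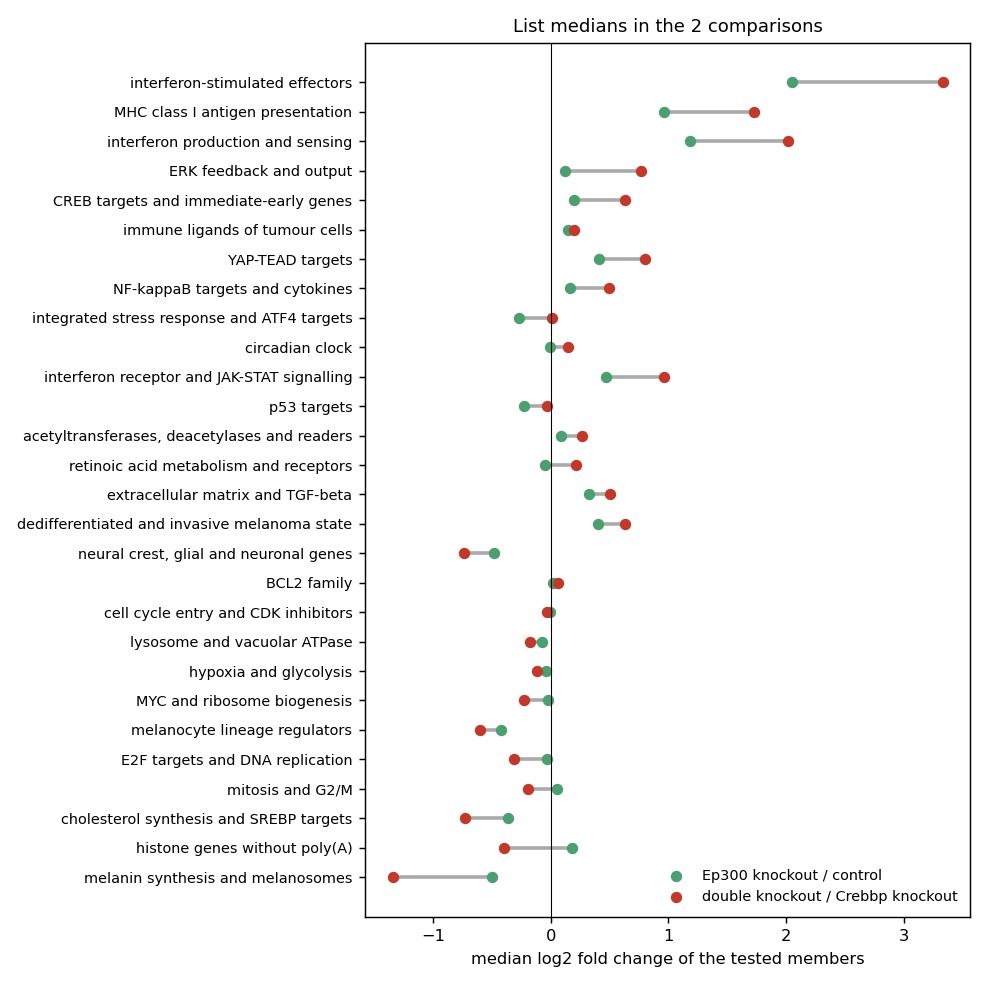
Median log2 fold change of the tested members of each list in the Ep300 knockout against control (green) and the double against the Crebbp knockout (red), by label, with lists ordered by the median interaction. The grey line joins the 2 medians of a list, which are 2.05 and 3.33 for interferon-stimulated effectors. The medians lie on opposite sides of 0 for mitosis and G2/M, histone genes, the integrated stress response, retinoic acid and the circadian clock. Some of these medians are close to 0.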

How the data were processed

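Total RNA from 12 B16F10 samples was extracted with a column kit and made into libraries with a stranded mRNA kit, per the labels' protocols. The deposited values are whole read counts per gene, which the authors made with bcl2fastq, HISAT2 and HTSeq on mm10, per the submitters' processing notes. No version, annotation release or strand setting of HTSeq was found in these notes (not given in the sources used here), so reads of overlapping and antisense genes may not be told apart. Each library has 1 column, and no column was left unused.

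Counts were tested with edgeR 4.0.16 in R 4.3.3 (filterByExpr, TMM scaling, quasi-likelihood F test with robust dispersion, no covariate) in 1 fit over all 12 libraries, with Benjamini-Hochberg adjustment over the 18434 genes tested and a threshold of 0.05. The biological coefficient of variation was 9.46%. The contrasts were double minus Crebbp knockout, Ep300 knockout minus control, and their difference. SEs were taken from the F statistic, and CPM are TMM-scaled. Ratios of low counts have exact conditional binomial 95% intervals, which cover counting error only. Gene names, types and positions came from GENCODE M21 on GRCm38 (mm10), exon lengths and GC content likewise, and promoter windows from RefSeq on GRCm38.p6. The fit was tested on simulated data.

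The comparison, its genes and the gene lists were chosen with earlier results of these data known. Named were 19 preset genes, the 12 largest rises and 12 largest falls with a mean of at least 5 CPM and no overlap between groups, up to 4 called members of each list by adjusted p, and the 8 largest interactions of each sign. Further list members are given as examples, chosen after their values were seen, and 583 called genes of at least 5 CPM with predicted, clone or mitochondrial names were not named. Some genes that these rules name are not reported here. Alternatives were RLE scaling, DESeq2 1.42.0, limma-voom 3.58.1, other filters, only the 6 compared libraries, a replicate block, offsets for exon length and GC content (mgcv 1.9-3), each library left out, and library totals, added after the data were seen.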

Additional observations from a re-analysis of the deposited data

Results flagged for a closer look

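The change that comes with the Ep300 knockout label differed, by the interaction test, between libraries labelled Crebbp knockout and libraries with an intact Crebbp label for 1897 genes, among them the genes below. All values here are differences of 2 log2 fold changes, the double against the Crebbp knockout minus the Ep300 knockout against control.

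Among immune genes the difference was positive for Ifi44 (2.83), Ifit3 (2.09), Oasl1 (2.08), Ifit3b (2.04), Nlrc5 (1.93), Irf7 (1.74), Cd274 (0.95), Isg15 (0.74) and B2m (0.44). It was also positive for Ccn2 (2.48), Lgr6 (2.08), Axl (0.84) and Cdkn1a (0.53). For the targeted transcripts it was 0.66 (Ep300) and 0.57 (Crebbp).

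Among pigment cell genes the difference was negative for Mlana (-1.33), Dct (-1.16), Pmel (-1.15), Mc1r (-0.99), Mitf (-0.78) and Tyr (-0.63), and Myc was at -0.40. It was negative as well for Kank4 (-2.19), Cck (-1.98), Ccdc13 (-1.86), Tg (-1.74), Frmd3 (-1.61), the glutathione transferase gene Gsta1 (-1.51) and Tmem56 (-1.50), each of which fell farther in the double-labelled comparison. Ttll11, at -1.71, is the exception to that pattern, since it rose in both comparisons. The differences of Crebbp, Myc and Tyr are the least stable of those given here, and lost their call under many alternatives.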

How the results depend on the processing

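Of 2277 log2 fold changes of the 152 genes named by the rules above under 15 alternatives, 2267 kept their direction and their side of the threshold, and none of these values reversed. The other 10 lost the call: Lyz2, which has under 2 CPM, under 8 alternatives, and Hist1h4d (adjusted p = 0.106) and Bcl2l1 (adjusted p = 0.126) with the exon length and GC offsets. Most of the 152 were chosen because they were called in these same counts, so that choice made kept calls likely. Further list members given as examples outside the 152 were not followed singly under the alternatives. Genes changed numbered 6497 to 7327 with each library left out, genes higher 3272 to 3627, genes lower 3225 to 3739 and genes changed at least 2-fold 1766 to 1915. The last count was 1122 with a filter of more than 1 CPM in 3 libraries, where fewer genes were tested. Scaled by library totals, 6104 genes were higher and 2266 lower. The interaction count ran from 1119 to 2861 with each library left out. Among named genes the interactions of Crebbp, Myc and Tyr lost their call under many alternatives, most of them with a single library left out. With the replicate block their adjusted p was 0.0787, 0.0762 and 0.0685. B2m lost its call only without the second Ep300-labelled library (adjusted p = 0.0507). Sox10 and Kit gained a call under some alternatives. The cause of these shifts was not tested. The replicate numbers did not pair the samples (same-numbered deviations correlated at -0.043, 0.083 and 0.036), and with the replicate block 7306 genes changed and 1345 interactions were called. The interaction could not be run on the 2 compared groups alone. Genes under about 1 CPM have few reads, and a change that was not called there may not have been detectable at this depth.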

Other observations

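Clock genes changed in both directions, with 7 of 18 tested members higher and 2 lower. The share called, 50%, was near the 50.9% of protein-coding genes. Per1, a repressor of the clock, stood at 9.19, 8.99 and 8.98 CPM in the libraries labelled Crebbp knockout and at 15.7, 18.8 and 15.3 CPM in those labelled double knockout, and Per2 rose by 1.85 on the log2 scale. Bhlhe41, also a repressor, fell from 177, 179 and 158 CPM to 71.2, 78.2 and 69.8 CPM. The groups did not overlap for either gene. Arntl, which encodes BMAL1, rose by 0.47, and Nr1d1 (0.01), Nr1d2 (-0.12) and Dbp (0.06) were not called.

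In retinoic acid metabolism 6 of 12 tested genes rose and 5 fell. Cyp26b1, which degrades retinoic acid, fell from 15.9, 15.9 and 14.2 CPM to 2.26, 2.44 and 2.39 CPM, without overlap, while its relative Cyp26a1 rose by 1.84. The receptor gene Rara rose by 1.05 and Rarb fell by 1.37. In the BCL2 family 4 of 13 genes rose and 4 fell, against 6 and 2 under library totals and 4 and 2 without the first Crebbp-labelled or the third double-labelled library: the survival genes Bcl2l2 (0.71) and Bcl2l1 (0.29) and the death genes Bok (1.20) and Bcl2l11 (0.46) were higher, and Bcl2 (-0.26), Mcl1 (-0.24), Bax (-0.41) and Bmf (-0.66) lower. The share called in this family was 61.5%, against 50.9% of protein-coding genes.

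By limits chosen after the values were seen, 17 genes lay under 0.5 CPM in all 3 Crebbp-labelled libraries and at 2 CPM or more in all 3 double-labelled ones. They are the interferon-stimulated or immune genes Oas3, Zbp1, Gbp9, Irf5, Ifi205, Ifi207, Phf11d, Sp110, Sp140 and Tnfsf10, the cytokine genes Il6, Lif and Cx3cl1, and Fosb, Egr2, Apod and Loxl4. Gbp9 had 6 reads in the 3 Crebbp-labelled libraries together and 936 in the double-labelled ones, a ratio of 119 with a 95% counting interval of 54.6 to 326, and Tnfsf10, the death ligand TRAIL, had a ratio of 20.8 (13.9 to 32.8). In the reverse direction 5 genes met the same limits, of which Ackr3, a scavenger receptor for CXCL12, went from 5.46, 4.48 and 5.24 CPM to 0.261, 0.319 and 0.214 CPM.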
